A study of Rattus norvegicus with 2 samples.

Results

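The genes of the mitochondrial ribosome and of mitochondrial protein import were compared between icariin-treated and DMSO-treated rat bone mesenchymal stem cells (BMSCs). Members were all sequences on the array whose gene symbol, old or current, begins with Mrpl, Mrps, Timm or Tomm followed by a digit. The rule found 109 of 26419 sequences, which fell into 102 of 24209 genes: 49 Mrpl genes, named for the large ribosomal subunit, 27 Mrps genes, named for the small subunit, 16 Timm genes of inner membrane import and 10 Tomm genes of outer membrane import. Of the member sequences, 87 carried the prefix in the array's own annotation, and 22 were found only through their current symbol. Icariin is a flavonol glycoside of Epimedium that the study used as an osteogenic reference compound. The other group is labelled DMSO-treated, and the study's methods do not say whether icariin was dissolved in DMSO.

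BMSCs were cultured from the flushed marrow of femurs and tibiae of Sprague-Dawley rats aged 4 weeks, kept by their adherence to plastic and used at early passage. They were not sorted, so the cultures could hold other adherent marrow cells. One group was given 20 uM icariin for 24 h and the other DMSO, for which no concentration or time is stated. The labels call the animals female and the study's methods call them male, and whether both cultures came from the same animals is not stated. Each group was measured on 1 single-colour NimbleGen rat expression array. With 1 array per group, a difference between the arrays has no replicate check, and no test, p-value or error across samples could be made. Below, "higher" and "lower" describe the icariin array against the DMSO array, and nothing more.

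Mitochondria keep ribosomes of their own, which translate the few proteins encoded in mitochondrial DNA, all of them parts of the respiratory chain and ATP synthase in mammals. Every protein of these ribosomes is encoded in the nucleus, made in the cytosol and imported. Import starts at the TOM complex of the outer membrane, from which the TIM23 translocase takes proteins with a cleavable presequence and the TIM22 translocase takes carrier proteins of the inner membrane, while small TIM chaperones guide hydrophobic proteins across the intermembrane space.

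By 2-fold or more, 1 of the 102 genes was higher on the icariin array and 7 were lower, beside 6.51% and 7.01% of all genes, so that the share of lower members was close to that of all genes. Mrpl47, Mrpl48, Mrpl30 and Mrpl23 were the members that differed by 2-fold or more and lay above a background limit, set by genes taken as silent, on both arrays. Mrpl30 and Mrpl23 fell short of 2-fold when the dependence of the difference on level was taken out by a loess (log2 differences of -0.999 and -0.93), while Mrpl47 and Mrpl48 stayed past it (1.62 and -1.18). Their promoters are shown because regulation of nuclear genes for mitochondria has been tied to factors that bind short motifs near the start site. Each run holds 250 bases before and 30 bases after the annotated start, 5′ to 3′ on the gene's strand, from RefSeq's promoter table of the GRCr8 build. Capitals mark a core motif of the ETS family, to which GABP (also called NRF2) belongs (CCGGAAG, or CTTCCGG on the other strand), or of YY1 (AAGATGGC).
Mrpl47, chr2:117447332-117447611, - strand: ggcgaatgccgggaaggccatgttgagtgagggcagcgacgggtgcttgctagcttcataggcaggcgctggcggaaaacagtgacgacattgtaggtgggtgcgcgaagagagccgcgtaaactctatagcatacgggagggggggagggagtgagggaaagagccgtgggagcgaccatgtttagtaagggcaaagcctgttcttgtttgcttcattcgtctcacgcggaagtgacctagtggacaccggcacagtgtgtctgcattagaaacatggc
Mrpl48, chr1:164351347-164351626, - strand: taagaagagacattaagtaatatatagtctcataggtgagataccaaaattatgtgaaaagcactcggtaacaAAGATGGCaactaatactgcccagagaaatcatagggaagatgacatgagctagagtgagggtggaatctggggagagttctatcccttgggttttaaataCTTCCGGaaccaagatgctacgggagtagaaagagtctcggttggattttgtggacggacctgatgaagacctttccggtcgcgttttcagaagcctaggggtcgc
Mrpl30, chr9:47620977-47621256, + strand: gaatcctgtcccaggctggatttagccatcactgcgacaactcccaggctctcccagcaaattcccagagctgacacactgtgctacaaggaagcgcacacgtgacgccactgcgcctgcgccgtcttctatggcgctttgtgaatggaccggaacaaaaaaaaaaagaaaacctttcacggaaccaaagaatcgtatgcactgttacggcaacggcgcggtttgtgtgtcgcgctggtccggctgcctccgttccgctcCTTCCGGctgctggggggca
Mrpl23, chr1:207116680-207116959, + strand: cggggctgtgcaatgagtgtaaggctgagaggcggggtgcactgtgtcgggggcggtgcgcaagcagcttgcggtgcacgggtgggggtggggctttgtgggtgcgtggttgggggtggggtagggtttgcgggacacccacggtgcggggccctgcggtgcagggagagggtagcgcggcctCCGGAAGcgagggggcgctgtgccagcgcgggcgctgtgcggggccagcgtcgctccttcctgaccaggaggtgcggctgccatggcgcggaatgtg
The promoter of Mrpl48 held an ETS core 76 bases before the start and a YY1 core 177 bases before it. Mrpl23 held an ETS core 67 bases before the start, and Mrpl30 held one 10 bases after it. The promoter of Mrpl47, the single member at least 2-fold higher, held no exact match to these cores in this window, nor to the NRF1 core CGCATGCG. Near matches were not marked. These genes were picked by their difference, so that no link between motif and direction is read from them. Among other members past the background limit on both arrays, Timm10b (0.72) and Mrps18b (0.44) were higher and held an ETS core. Timm8a1 (-0.97) and Mrps17 (-0.92) were lower and held none.

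Of the 102 members, 83 had a promoter in the table, which covers 250 bases before to 50 after the start of 27457 promoters. The ETS core stood on either strand in 26 of the 83 members (31.3%), against 12.4% of the 15084 promoters of genes on the array and 9.22% of all promoters. For the YY1 core these shares were 19.3% (16 members), 4.08% and 3.44%, and for the NRF1 core 7.23% (6 members), 2.56% and 1.81%. The ETS core ends with the letters that begin the YY1 core, so that a single stretch can hold both. At least 1 of these cores stood in 40 of the 83 member promoters (48.2%) and in 13.3% of all promoters. The general CCAAT box stood in 42.2% of the members, 38.0% of the genes on the array and 37.7% of all promoters. The medians of the log2 difference between the arrays had no common direction across motifs. They were -0.26 over members with an ETS core and 0.01 over those without, -0.19 and -0.06 for the YY1 core, 0.19 and -0.11 for the NRF1 core, and -0.11 and -0.08 for the CCAAT box. A match of letters is a description and not a binding site, and no binding was measured here.

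The levels used below are normalized intensities, each a summary of 5 probes, on a scale where probes of random sequence read 73.8 with DMSO and 78.4 with icariin. BMSCs have no known use for the 1428 receptor genes of smell and pheromone sensing on the array, so the 95th percentile of these genes, 148 with DMSO and 168 with icariin, served as a background limit and is called the receptor level. Of the members, 87 lay above it on both arrays, 4 on 1 array (Mrpl39, Mrpl50, Mrps36 and Timm21) and 11 on neither. The 11 were Mrpl19, Mrpl32, Mrps10, Mrps18c, Mrps27, Mrps28, Mrps31, Mrps34, Timm8a2, Timm9 and Tomm20l, and their differences cannot be told from background. Member intensities ran from 62.2 to 6697 on the DMSO array, with a median of 479, and from 38.2 to 6340.1 on the icariin array, with a median of 418. Over all sequences the medians were 140 and 142. Intensities of different genes depend on their probes, so that no order of expression is read from them.

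**Figure D1:**
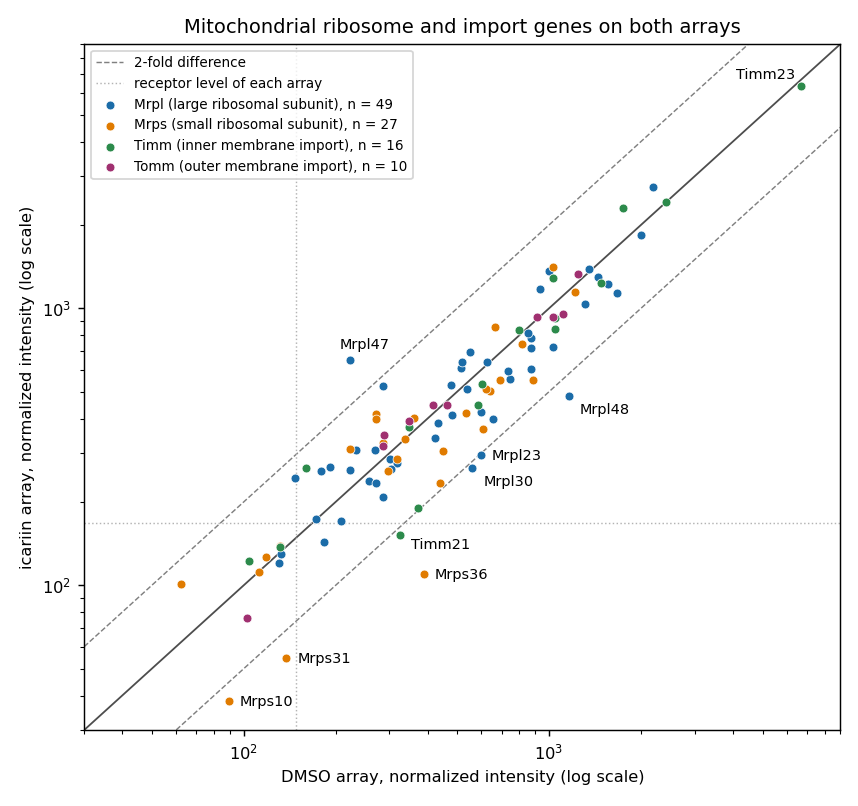
Normalized intensity of the 102 genes on the DMSO array (x axis) and the icariin array (y axis), both on log scales, coloured by prefix; Mrps18a and Mrps30 encode large-subunit proteins in spite of their prefix. The solid line marks equal values, dashed lines a 2-fold difference and dotted lines the receptor level of each array. Most points lie between the dashed lines, with Mrpl47 above them and 7 genes below.

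At least 2-fold higher was 1 of 102 members, against 6.51% of all genes, and at least 2-fold lower were 7 of 102, against 7.01%. In total 60 members (58.8%) were lower by any amount, against 51.4% of all genes. The median log2 difference was -0.10, with quartiles of -0.33 and 0.19, and that over all genes was -0.02. The share of lower members depended on the processing. After the loess on level, 55 of the 102 members (53.9%) were lower by any amount, beside 12102 of all 24209 genes. The only repeat in these data is a second sequence for the same gene. For the 396 genes with 2 sequences past the receptor level on both arrays, the icariin-minus-DMSO differences of both sequences lay 0.36 apart in the median and 1.01 apart at the 90th percentile, and their signs differed for 123 genes (31.1%). Sequences of a gene share the RNA sample, so that this spread of single genes is no measure of replicate error and does not judge a median over many genes.

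A filter that passes a gene through its brighter array alone selects for differences, so the comparison was repeated only with genes past the receptor level on both arrays. Among the 87 such members, 1 was at least 2-fold higher (all such genes, 2.97%) and 3 were at least 2-fold lower (4.39%), with 58.6% lower by any amount (53.8%). Differences of at least 1.5-fold in either direction were found in 12 of these 87 members (13.8%), against 24.8% of the 9267 genes past that level on both arrays. The median intensity of the members lay above that of all sequences on both arrays, and the part of intensity in these shares was not tested.

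**Figure D2:**
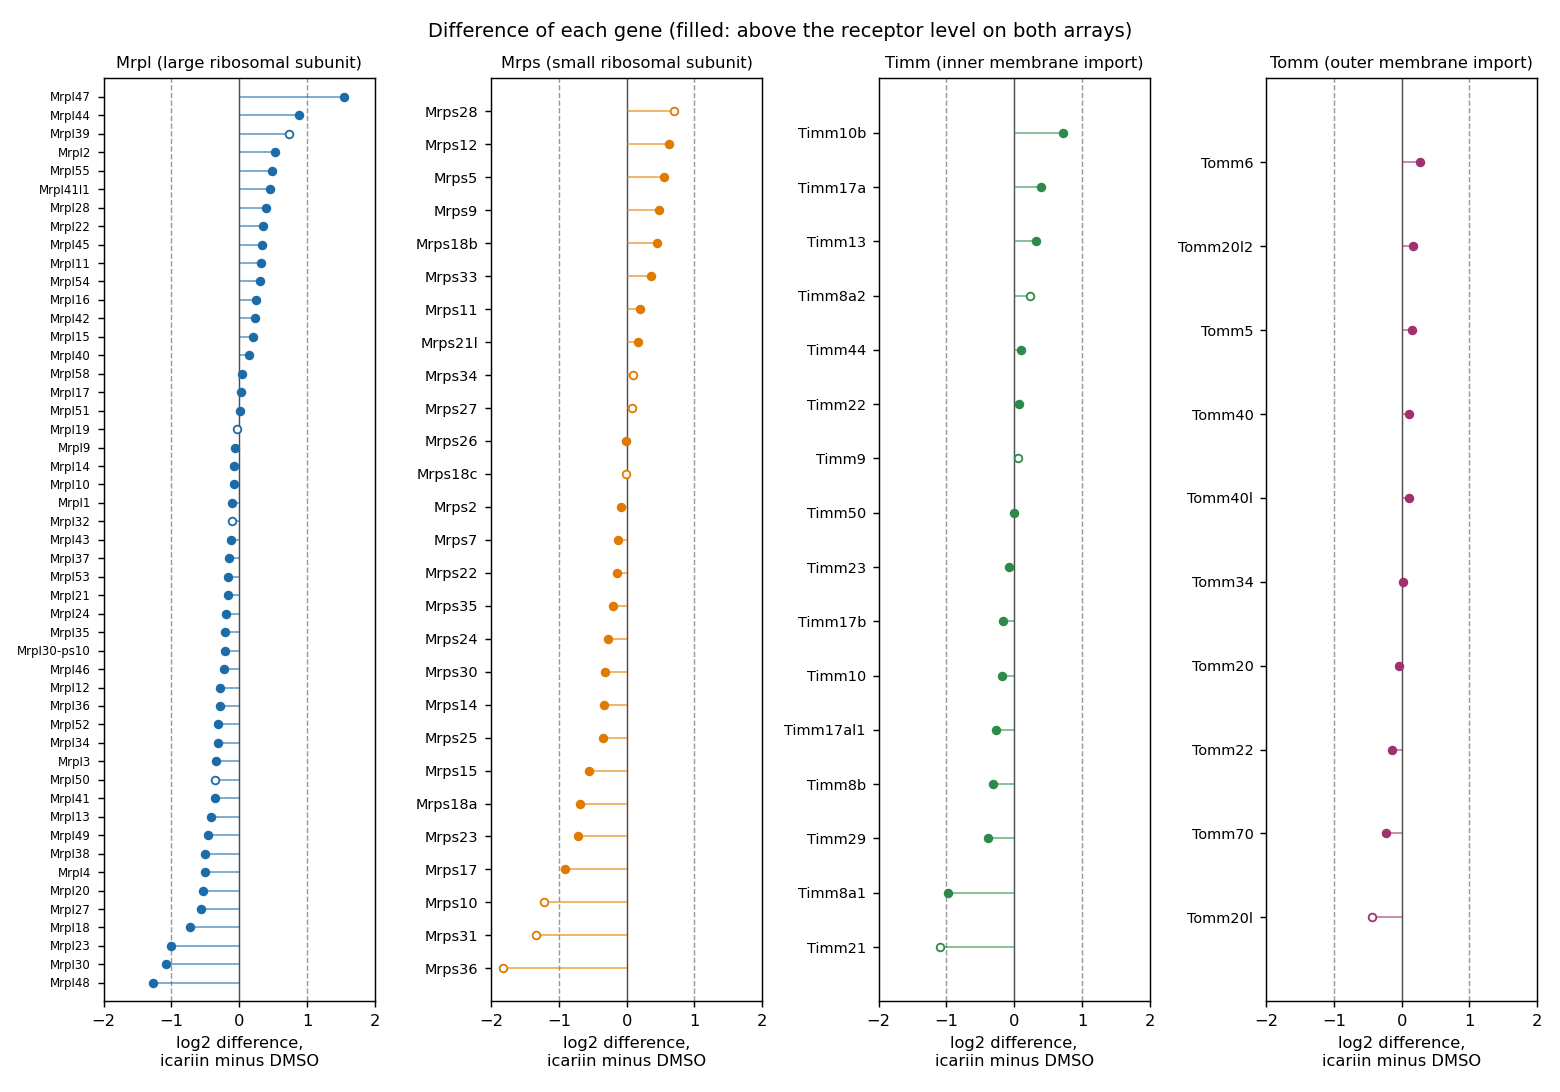
Log2 difference of every gene, icariin minus DMSO (x axis), sorted within each prefix (y axis), with dashed lines at a 2-fold difference. Filled points passed the receptor level on both arrays and open points did not. Among the filled points, Mrpl47 lies beyond the upper line, Mrpl48, Mrpl30 and Mrpl23 lie beyond the lower one, and all 9 filled Tomm genes lie within 1.5-fold. The point of Tomm20l2 is a mean of 2 sequences with log2 differences of -0.40 and 0.73.

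The large ribosomal subunit joins amino acids and releases the new chain through its exit tunnel. Of 49 Mrpl genes, 1 was at least 2-fold higher (2.04%, all genes 6.51%) and 3 were at least 2-fold lower (6.12%, all genes 7.01%). Lower by any amount were 31 (63.3%, all genes 51.4%), and the median log2 difference was -0.12. Mrpl47 encodes the protein uL29m at the rim of the exit tunnel. It read 223 with DMSO and 652 with icariin, which was 2.92-fold higher. Mrpl44, a protein with a ribonuclease III fold, followed with 285 and 526, a 1.85-fold difference that fell short of the 2-fold line. Mrpl39 read 147 and 244, and since its DMSO value did not pass the receptor level, it was at least 1.45-fold higher.

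On the lower side, Mrpl48, a protein of the central protuberance, where the subunits meet above the tRNAs, went from 1161 to 482 and was 2.41-fold lower. Mrpl30, the counterpart of the bacterial ribosomal protein uL30, read 561 and 266, which was 2.11-fold lower. Mrpl23, the counterpart of uL23 at the tunnel exit, read 597 and 296, which was 2.01-fold lower and close to the 2-fold line. Each of these 4 genes was measured by a single sequence. A pseudogene annotated as a copy of Mrpl30, Mrpl30-ps10, had a sequence of its own, with 271 and 234. Next came Mrpl18, also of the central protuberance, with 656 and 397 (1.65-fold lower), and Mrpl27, which lies near the peptidyl transferase centre, with 1670.4 and 1132 (1.48-fold lower).

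Neighbours within the subunit did not share a direction throughout. Of 5 members placed at the central protuberance, 4 were lower on the log2 scale, namely Mrpl48 (-1.27), Mrpl18 (-0.72), Mrpl38 (-0.50) and Mrpl46 (-0.22), while Mrpl40 stood at 0.14. The list may not be complete: Mrpl58, which was not placed in it, stood at 0.03. The 6 proteins around the tunnel exit held both the highest and 1 of the lowest differences of the Mrpl genes, Mrpl47 at 1.54 and Mrpl23 at -1.01. Between them lay Mrpl22 and Mrpl45, both at 0.34, Mrpl17 at 0.03 and Mrpl24 at -0.19. Mrpl45 holds the ribosome to the inner membrane. The stalk, which recruits translation factors, is made by Mrpl10 (-0.08), Mrpl11 (0.32) and Mrpl12 (-0.28). These groups by position were drawn up after the values had been seen, and with 3 to 6 genes each they are listed only as values.

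The small ribosomal subunit binds the mRNA and decodes it. Of the 27 Mrps genes, none was at least 2-fold higher (all genes, 6.51%), and 3 were at least 2-fold lower (11.1%, all genes 7.01%). None of the 3 passed the receptor level on both arrays. Lower by any amount were 17 of the 27 (63.0%, all genes 51.4%), and the median log2 difference was -0.13. Mrps36 read 389.8 with DMSO and 110.2 with icariin, and with the icariin value raised to the receptor level it was at least 2.32-fold lower. Its current symbol is Kgd4, since its protein is now known as a subunit of the 2-oxoglutarate dehydrogenase complex and not of the ribosome. Mrps31 (138 and 54.9) and Mrps10 (89.1 and 38.2) lay under the receptor level on both arrays, so that no ratio is given for them.

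Among the Mrps genes that passed the receptor level on both arrays, Mrps17 was furthest from equality. It encodes the counterpart of the bacterial protein uS17 and read 441 and 234, which was 1.89-fold lower. Both of its sequences were lower, by log2 differences of -0.98 and -0.85, though the dimmer of them fell under the receptor level on the icariin array. Mrps23, a protein found in mitochondrial and not in bacterial ribosomes, read 607 and 368 (1.65-fold lower), and Mrps15 read 449 and 304 (1.48-fold lower). Mrps18a and Mrps30 have small-subunit names, but their proteins sit in the large subunit. They read 887 and 551 (1.61-fold lower) and 689.5 and 550.2 (1.25-fold lower). On the higher side were Mrps12, the counterpart of uS12 of the decoding centre, with 271 and 416 (1.53-fold), Mrps5 with 272 and 398 (1.46-fold) and Mrps9 with 224 and 311 (1.39-fold). The 2 sequences annotated as Mrps28, both under the receptor level, had log2 differences of 0.07 and 1.33.

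The import genes lay closer to equality than the 2-fold line in all but a single case. Of the 26 Timm and Tomm genes together, none was at least 2-fold higher (all genes, 6.51%). At least 2-fold lower was 1 (3.85%, all genes 7.01%), and 12 were lower by any amount (46.2%, all genes 51.4%). Their median log2 difference was 0.01. The 16 Timm genes had a median of -0.04, which turned to 0.01 when the dependence of the difference on level was taken out or the differences were centred on detected genes, and the 10 Tomm genes a median of 0.06. Over the 76 genes with ribosomal names, the median was -0.13 and 48 were lower. Whether these medians differ beyond the error of an array could not be tested.

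The TOM complex is the entry gate of the outer membrane, and all of its 6 members measured here lay within 1.5-fold. Tomm40, the pore itself, read 1243 with DMSO and 1335 with icariin. Its receptors Tomm20 and Tomm22, which bind presequences, read 462 and 447, and 1028 and 929. Tomm70, the receptor for carrier proteins, read 1111 and 951, a log2 difference of -0.22 and the lowest of the complex. The small subunits Tomm5 (286 and 318) and Tomm6 (289 and 349) were at 0.15 and 0.27. Of the Tomm genes outside the complex's core, Tomm34, a cytosolic co-chaperone, read 912 and 929, and Tomm40l, a paralog of Tomm40, read 416 and 447. Tomm20l, a paralog of Tomm20, was under the receptor level on both arrays.

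The TIM23 translocase and its motor include the only Timm gene past the 2-fold line. Timm23, the channel subunit, read 6697 and 6340.1. Timm50, the presequence receptor, read 2424 and 2427, and its 2 sequences differed in sign by a small amount, with log2 differences of -0.10 and 0.10. Timm17a and Timm17b are alternative partners of Timm23. Timm17a read 1744 and 2296 (log2 difference 0.40) and Timm17b read 601 and 535 (-0.17). Timm44, which tethers the import motor, read 348 and 372. Timm21, which contacts the TOM complex and early respiratory chain intermediates, read 325 and 152. The icariin value of Timm21 was under the receptor level, so that it was at least 1.93-fold lower, a bound that stays short of 2-fold.

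Of the TIM22 translocase, Timm22, its channel, read 799 and 838, and Timm29, another of its subunits, read 586 and 447. The small chaperones of the intermembrane space act in pairs. In the pair of Timm9 and Timm10, Timm10 read 1044 and 923 and Timm9 stayed under the receptor level on both arrays. In the pair of Timm8 and Timm13, Timm13 read 1028 and 1285, while Timm8a1, the rat counterpart of the human deafness-dystonia gene TIMM8A, read 373 and 190.2 and Timm8b read 1044 and 839.9. Timm8a1 was 1.96-fold lower and so lay just inside the 2-fold line. Timm10b, which anchors the small chaperones to TIM22, read 160.2 and 265, a log2 difference of 0.72, with a DMSO value near the receptor level.

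**Figure D3:**
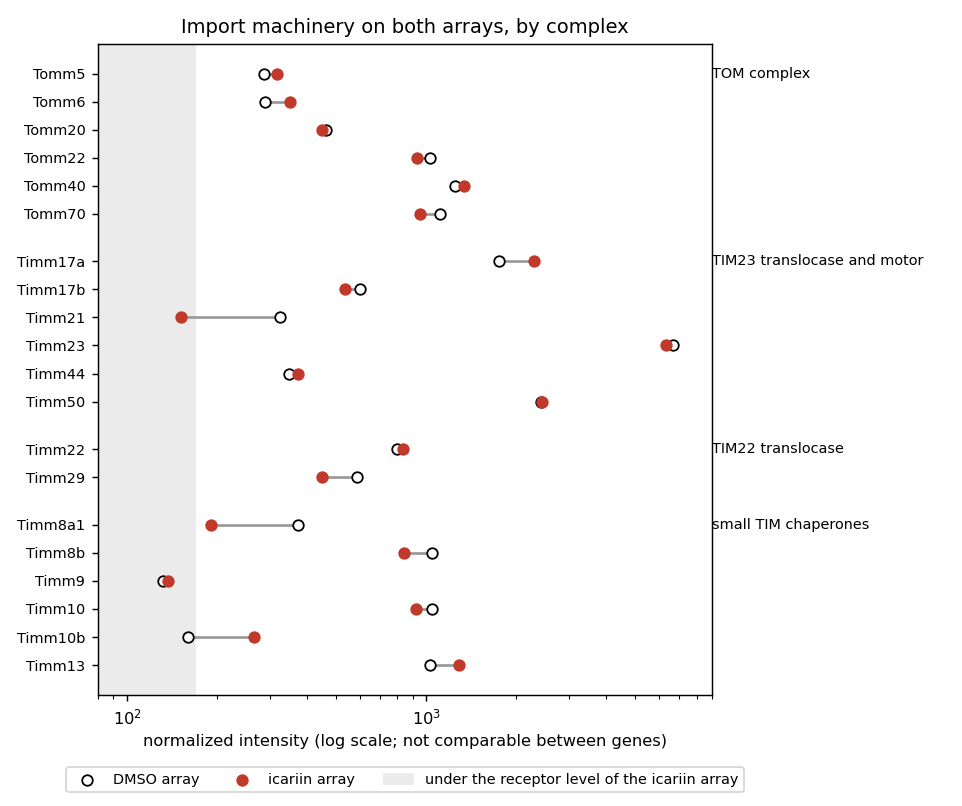
Normalized intensity (x axis, log scale) of the 20 import genes assigned to a complex (y axis) on the DMSO array (open circles) and the icariin array (filled circles), with a grey band under the receptor level of the icariin array. In the TOM complex both circles lie side by side for every gene, and the widest gaps are those of Timm21 and Timm8a1 on the lower side and of Timm10b on the higher side.

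A further set of 6 members are copies or pseudogenes by their current symbols, and their probes may read RNA of the parent gene. Mrpl41l1 read 998 and 1363, whereas Mrpl41 read 1565 and 1220.1, so that parent and copy pointed in opposite directions. Timm17al1, annotated as a pseudogene, read 1479 and 1234 and opposed Timm17a in the same way. The 2 sequences of Tomm20l2 had log2 differences of -0.40 and 0.73, a wider gap than in either pair of parent and copy above. Without the 6 copies, the counts of members at least 2-fold higher and lower stayed at 1 and 7.

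Other proteins of mitochondrial translation were compared from lists of named genes. Of the 5 mitoribosomal proteins without the Mrp prefix, Ptcd3, a protein of the small subunit that binds RNA, was at least 2-fold higher, with 228 and 569 (2.50-fold). Dap3, a GTP-binding protein of the small subunit, read 798 and 1058, and the median log2 difference of the list was 0.36. Of 14 translation factors, only 5 passed the receptor level on both arrays, so that dim values enter their median of 0.40. None of the 14 was at least 2-fold lower (all genes, 7.01%), and 2 were at least 2-fold higher (14.3%, all genes 6.51%). Neither of the 2 is measured as a 2-fold difference. Mrrf, the ribosome recycling factor, read 61.1 and 177, which made it at least 1.05-fold higher. Pdf, the peptide deformylase, read 65.0 and 155, under the receptor level on both arrays. Tufm, the elongation factor that delivers aminoacyl-tRNA, was bright on both arrays, with 1788 and 1669.9. Of 24 assembly factors of the mitoribosome, 12 passed the receptor level on both arrays, and the median of all 24 was 0.18. Past the 2-fold line lay none on the lower side (all genes, 7.01%) and 2 on the higher (8.33%, all genes 6.51%). They were Rpusd3, a pseudouridine synthase for mitochondrial RNA, at least 1.71-fold higher, and Tfb1m, an rRNA methyltransferase, at least 1.15-fold higher by the bound.

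Of 15 mitochondrial tRNA synthetases, 6 passed the receptor level on both arrays. Among all 15, 1 was at least 2-fold higher (6.67%, all genes 6.51%) and 2 were at least 2-fold lower (13.3%, all genes 7.01%). The median log2 difference of the 15 was -0.13. Pars2, for proline, read 357 and 146 and was at least 2.12-fold lower. Lars2 (99.3 and 217) and Nars2 (234 and 79.9), for leucine and asparagine, were each above the receptor level on 1 array. In the list of 13 genes of mitochondrial DNA upkeep and transcription, 5 passed the receptor level on both arrays, and the median of all 13 was -0.25. Polrmt, the mitochondrial RNA polymerase, read 187 and 389.5 (2.08-fold higher), whereas Tfam, which packs mitochondrial DNA and helps the polymerase start, read 260.4 and 124 and was at least 1.55-fold lower. Of 13 regulators of nuclear genes for mitochondria, none differed by 2-fold, and the median was -0.00. Of the 10 that passed the receptor level on at least 1 array, 6 were higher and 4 lower by any amount, and only 7 passed it on both. Gabpa, a subunit of the ETS factor GABP, read 141 and 186. Its DMSO value was under the receptor level, so that it was at least 1.10-fold higher by the bound. Gabpb1, another subunit, read 638 and 494. Myc and Sp1 stood on the higher side, with 1667 and 2501 and with 1420.1 and 1823. Yy1 read 537 and 483, and Nrf1 read 227 and 156, the latter under the receptor level. Ppargc1a, the coactivator PGC-1alpha, was under the receptor level on both arrays.

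Of 30 partners of import, chaperones and proteases, 1 was higher and 1 lower by 2-fold or more (3.33% each). Over all genes these shares were 6.51% and 7.01%. The median log2 difference of the list was -0.08. Dnajc11, a J-domain protein tied to the contact sites of inner and outer membrane, read 469 and 1083 (2.31-fold higher). Htra2, a protease of the intermembrane space, read 1571 and 729 (2.16-fold lower). Hspa9, the Hsp70 that drives the TIM23 motor, read 2146 and 1961, and Hspd1, the chaperonin Hsp60, read 1442 and 1589. Samm50, which inserts barrel proteins into the outer membrane, read 739 and 456, and Chchd4, the oxidoreductase that traps small proteins in the intermembrane space, read 702 and 441, each short of 2-fold.

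**Figure D4:**
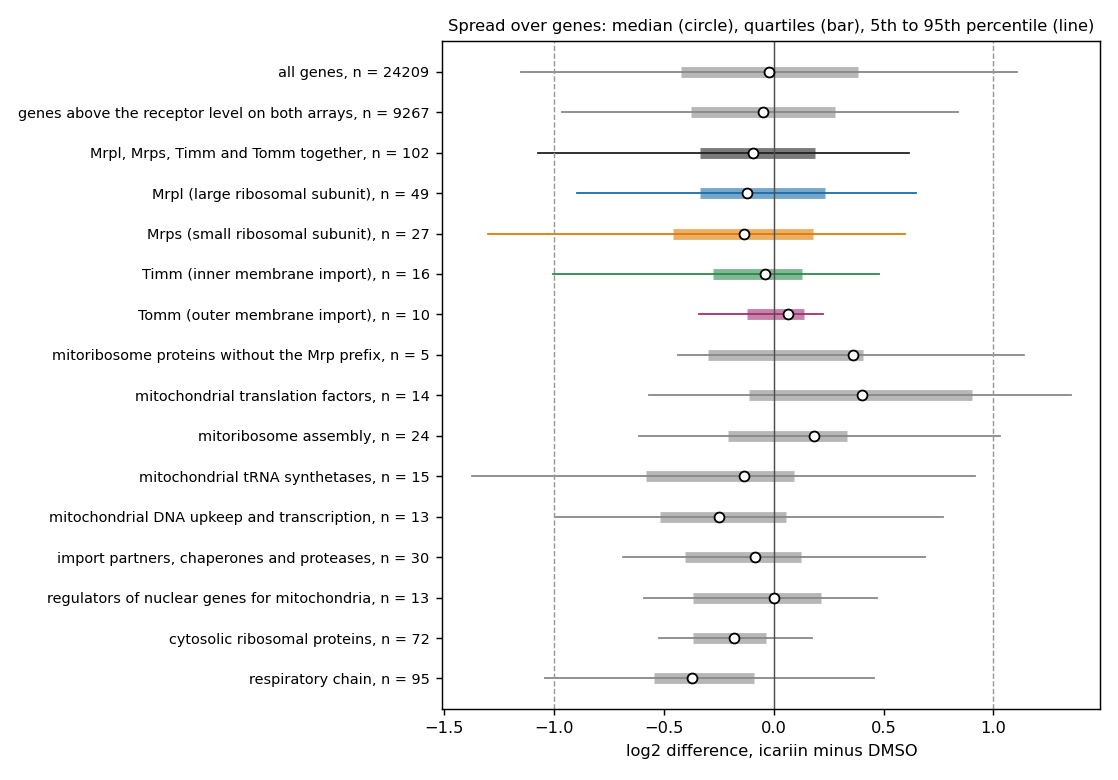
Spread of the log2 difference, icariin minus DMSO (x axis), over the genes of each set (y axis): circle, median; bar, quartiles; line, 5th to 95th percentile; dashed lines, 2-fold. The spread is over genes and is no error of a mean. All genes of each list enter, also dim ones: of the 14 translation factors, 5 passed the receptor level on both arrays. The medians of the Mrpl and Mrps genes lie at -0.12 and -0.13, those of the Timm and Tomm genes at -0.04 and 0.06 (the Timm median turned to 0.01 after a loess of the difference on level or centring on detected genes), and that of the respiratory chain at -0.37.

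The respiratory chain, whose mitochondrially encoded parts these ribosomes make, is shown for scale. Its list of 95 nuclear genes, chosen by symbol, holds 17 copies or pseudogenes and 7 genes under the receptor level on both arrays. Its median log2 difference was -0.37, or -0.28 after the loess on level and -0.40 without the copies, against -0.13 for genes with ribosomal names. Lower by any amount were 78 (82.1%), against 48 of the 76 genes with ribosomal names (63.2%) and 51.4% of all genes. After the loess on level, 73 of the 95 (76.8%) were lower, beside 59.2% of the Mrpl genes and 55.6% of the Mrps genes. As measured, 24.4% of the respiratory chain genes past the receptor level on both arrays differed by at least 1.5-fold in either direction. The share was 24.8% for all genes past it, and 13.8% for the members. For the 72 cytosolic ribosomal protein genes, whose median was -0.18, it was 4.17%. These shares pool both directions. Of all 95 respiratory chain genes, 21 were at least 1.5-fold lower and 5 higher, beside 4302 and 3974 of all 24209 genes. These shares describe a pair of arrays and were not tested against each other.

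Many genes of macrophages and leukocytes were higher on the icariin array. Of 19 macrophage markers, 11 were at least 2-fold higher by their measured values, against 6.51% of all genes, and 7 by the bound that raises dim values to the receptor level. The median log2 difference was 1.15, and the summed intensity was 7034 with DMSO and 20675 with icariin. Cd163, Marco and Fcgr1a were under the receptor level on both. Of 10 markers of leukocytes in general, 7 were at least 2-fold higher by their measured values and 4 by the bound, Coro1a read 201 and 192, and the summed intensity of the list was 1816 and 4129. Of 15 marrow stromal markers, none differed by 2-fold, and 14, all except Lepr, passed the receptor level on both arrays. By any amount 12 of the 15 were higher, with a median log2 difference of 0.23, and the summed intensity was 153038 and 173901. In such bulk RNA, fewer cells of a type and less RNA per cell cannot be told apart. The part of the macrophage and leukocyte genes in the values of the ribosomal and import genes was not tested.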

How the data were processed

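RNA of rat BMSCs was hybridised to single-colour (Cy3) NimbleGen rat arrays, 1 for DMSO and 1 for icariin, with groups taken from the treatment label. The deposited intensity values, on a linear scale, had been made by the authors through quantile normalization and RMA, which the submitters' processing notes also name. The NimbleScan version is not given in the sources used here. Quantile normalization gives both arrays 1 distribution, so a shift of all transcripts would not be seen. A standard error was also deposited for each sequence, but its scale is unknown and it was not used.

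Sequences were named through RefSeq's gene table of GRCr8: 20681 of 26419 were found by gene identifier and 31 by transcript accession, while 5707 retained the array's symbol. Mrps24 includes a sequence whose identifier now belongs to Urgcp. Log2 values were taken from the deposited intensities and averaged over the sequences of a gene (95 members had 1 sequence and 7 had 2), and the difference is icariin minus DMSO. The fold was 2, since the study's methods name fold change filtering with no fold. Where the dimmer array did not pass the receptor level, values were raised to a floor of 168 and the ratio given as "at least", a convention and not a sure bound: the 99th percentile of receptor genes was 221 with DMSO and 270.3 with icariin.

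Members, lists and tests were chosen with earlier results of these data known, and the groups by position in the ribosome after the values were seen. The genes named were every member at least 2-fold different, the 5 largest falls and 3 largest rises of each prefix above the receptor level on at least 1 array, all import genes of the named complexes, members whose sequences differ in sign, and up to 4 genes of each other list. Tufm, Hspa9, Hspd1, Tfam, Ppargc1a, Nrf1 and Dap3 were named whatever their level. A selection of these is printed, and other members, Sp1, Gabpb1, Yy1, Coro1a, Pdf and Chchd4 were named after their values were seen. The alternatives took the series' own value table (107 of 109 member sequences, differing by 0.0288 at most), a loess of the difference on level (span 0.3), centring, the highest sequence, sequences as units, 64 added, folds of 1.5 or 3, receptor-level filters at the 95th or 99th percentile, a floor, and old or current symbols alone. Protein sequences were not used here. Only the averaging over sequences and the 2-fold call were tested on simulated arrays with planted differences. The simulated noise was below the spread between sequences of a gene in these data. Calculations were run in Python 3.11.15 with numpy 2.4.6, pandas 2.3.3, scipy 1.17.1 and statsmodels 0.14.6, and figures were drawn with matplotlib 3.10.9.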

Additional observations from a re-analysis of the deposited data

How the results depend on the processing

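No paired analysis was possible because each group holds 1 array, and for the same reason no replicate could be left out. The median log2 difference of the members stayed below 0 under all 15 alternatives, between -0.14 and -0.05. So did those of the Mrpl genes (-0.16 to -0.07) and the Mrps genes (-0.15 to -0.01). The median of all genes was -0.02, and 0.00 after the loess. Past the receptor level on at least 1 array it was -0.10, beside -0.12 for the members. Past that level on both arrays it was -0.05, beside -0.11. Under such filters the sign alone does not set the members apart. The share of members lower by any amount ran from 52.9% with values raised to the floor to 62.7% with the array's own symbols only. It was 53.9% under the loess and 54.9% after centring on detected genes. The Timm median ran from -0.17 to 0.01 and was negative under 13 of the 15, and the Tomm median ran from -0.01 to 0.15. The lowest medians of the members, Mrpl and Timm genes came with the 99th percentile filter on at least 1 array, which selects for differences. The counts past a fold depended on the processing. Members at least 2-fold higher, 1 as reported, numbered 2 in the value table of the series, 2 with sequences as units and 2 with the array's own symbols only. The added member was each time a sequence of Mrps28, with 48.4 and 122, under the receptor level on both arrays. At 1.5-fold, 6 of the 102 members were higher and 12 lower, beside 3974 and 4302 of all 24209 genes. At 3-fold, 0 members were higher and 1 lower. Members at least 2-fold lower, 7 as reported, numbered 2 with 64 added to both values, 4 with values raised to the floor, 3 above the receptor level on both arrays and 2 above its 99th percentile on both. Under the loess, 1 member was higher and 5 were lower, beside 6.57% and 6.83% of all genes. Mrpl23 and Mrpl30 were no longer among the lower members, as with 64 added. After centring on detected genes, Mrpl23 stood at -0.96. Leaving out gene copies, also those of the respiratory chain, or Mrps36 was chosen after seeing the data. Without Mrps36, 6 members were at least 2-fold lower. The 11 members under the receptor level on both arrays have no measurable difference. With 1 array per group, no difference named here can be told from variation between arrays or cultures.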
